A study of Bos taurus with 8 samples.

Results

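Translation initiation factors are the proteins that bring a ribosome, the initiator methionyl-tRNA and an mRNA together at a start codon, and their transcripts were examined in the liver of fetal calves from cows on low or high nutrition. Genes were taken by a symbol that begins with EIF1 to EIF6, without the EIF2AK kinases, and were matched to probes of the array by RefSeq accession. The reference table lists 49 genes with such a symbol, of which 40 had a matched probe and 39 a detected one, among 12603 genes with a matched probe and 10860 with a detected probe. All 39 were well above background on all 8 arrays, so none of them entered through the level of 1 group alone. The probe of EIF1AY, the Y-linked copy of eIF1A, was well above background on 0 of 8 arrays and was not tested. EIF2B5, EIF3F, EIF4E1B, EIF4EBP2, EIF4EBP3, EIF4ENIF1, EIF4G1, EIF4G3 and EIF5B were without a matched probe and are not analysed here, so that eIF4G1, the scaffold of the cap-binding complex, and eIF5B, which joins the ribosomal subunits, are absent from what follows.

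Liver RNA of 4 low-nutrition (LN) and 4 high-nutrition (HN) Japanese Black fetuses was hybridised in 1 colour, and the labels name 1 fetus per array, although the design text of the series speaks of RNA pooled by group. Dams of LN fetuses received 60% of their nutritional requirement during gestation and dams of HN fetuses 120%, and there was no group at the requirement itself. The livers were taken at 8.5 months after conception, on day 260 ± 8.3 in the methods. By the methods, the pregnancies came from sorted semen for male calves of a single sire. LN fetuses were picked for low and HN fetuses for high body weight, so the groups also differ by this choice on body weight. Fetuses L5, L6, L8 and L9 belong to LN and L1, L2, L3 and L10 to HN. The 2 slides held 1 group each, so slide, scan and nutrition cannot be told apart. Between 32635 and 34369 of 43803 spots were well above background on an array, and 0 spots of initiation factors were saturated. In whole liver, fewer cells of a type and less RNA per cell cannot be told apart.

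Initiation begins when eIF2, loaded with GTP, delivers the initiator tRNA to the small ribosomal subunit, held open by eIF1, eIF1A and the large eIF3 complex. The eIF4F complex recognises the mRNA cap and unwinds the leader, eIF5 triggers GTP hydrolysis at the start codon, and eIF2B recharges eIF2 for the next round. Phosphorylation of the alpha subunit of eIF2 turns it into an inhibitor of eIF2B and is the central step of the integrated stress response, while mTORC1 frees eIF4E from its binding proteins when nutrients are plentiful. The liver makes plasma proteins for the whole animal and has a high rate of protein synthesis.

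Most initiation factor transcripts had slightly higher signals in LN than in HN. Of the 39 detected genes, 37 had the higher mean in LN and 2 (EIF2B4 and EIF3K) the lower, whereas 51.6% of the 10860 genes with a detected probe were higher in LN. With each array scaled to its 75th percentile the counts were 35 and 4, and 45.6% of all genes were higher in LN. The median difference (LN minus HN, mean log2 signal) was 0.17 over the 39 genes and 0.01 over all genes. Over the 1553 genes at least as bright as the median initiation factor it was 0.004, with 50.9% higher in LN. Differences of single genes were small: they ran from -0.10 for EIF2B4 to 0.45 for EIF2S2, a 1.37-fold ratio, and 0 of 39 reached 0.5.

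By limma, 0 initiation factor genes passed an adjusted p of 0.05, the lowest being 0.760, as did 0% of all genes with a detected probe. At an unadjusted limma p of 0.05, 5 were higher in LN (EIF2S1, EIF2S2, EIF2S3, EIF3M and EIF4E) and 0 lower, against 3.30% of all genes higher and 2.75% lower. By the methods' t-test, named there for metabolites, 10 were higher and 0 lower before adjustment, against 4.37% and 2.85% of all genes, and 0 passed after it. Every LN fetus lay above every HN fetus for 6 genes (EIF2A, EIF2S2, EIF2S3, EIF3D, EIF4A3 and EIF4E), against 2.59% of all genes. The reverse held for 0 of the 39 and for 1.56% of all genes. The number at an unadjusted p of 0.05 was 1 without L5 (2.40% of all genes), without L2 (2.85%) or without L10 (1.89%), 2 without L9 (2.82%) and 3 without L8 (3.02%). The count without overlap was 12 without L3, where 5.76% of all genes had LN above HN, and 10 without L6, where 5.29% had. Fetuses L6, L9 and L3 left out together, a choice made after seeing the data, gave 22 genes without overlap and 17.2% of all genes.

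**Figure D1:**
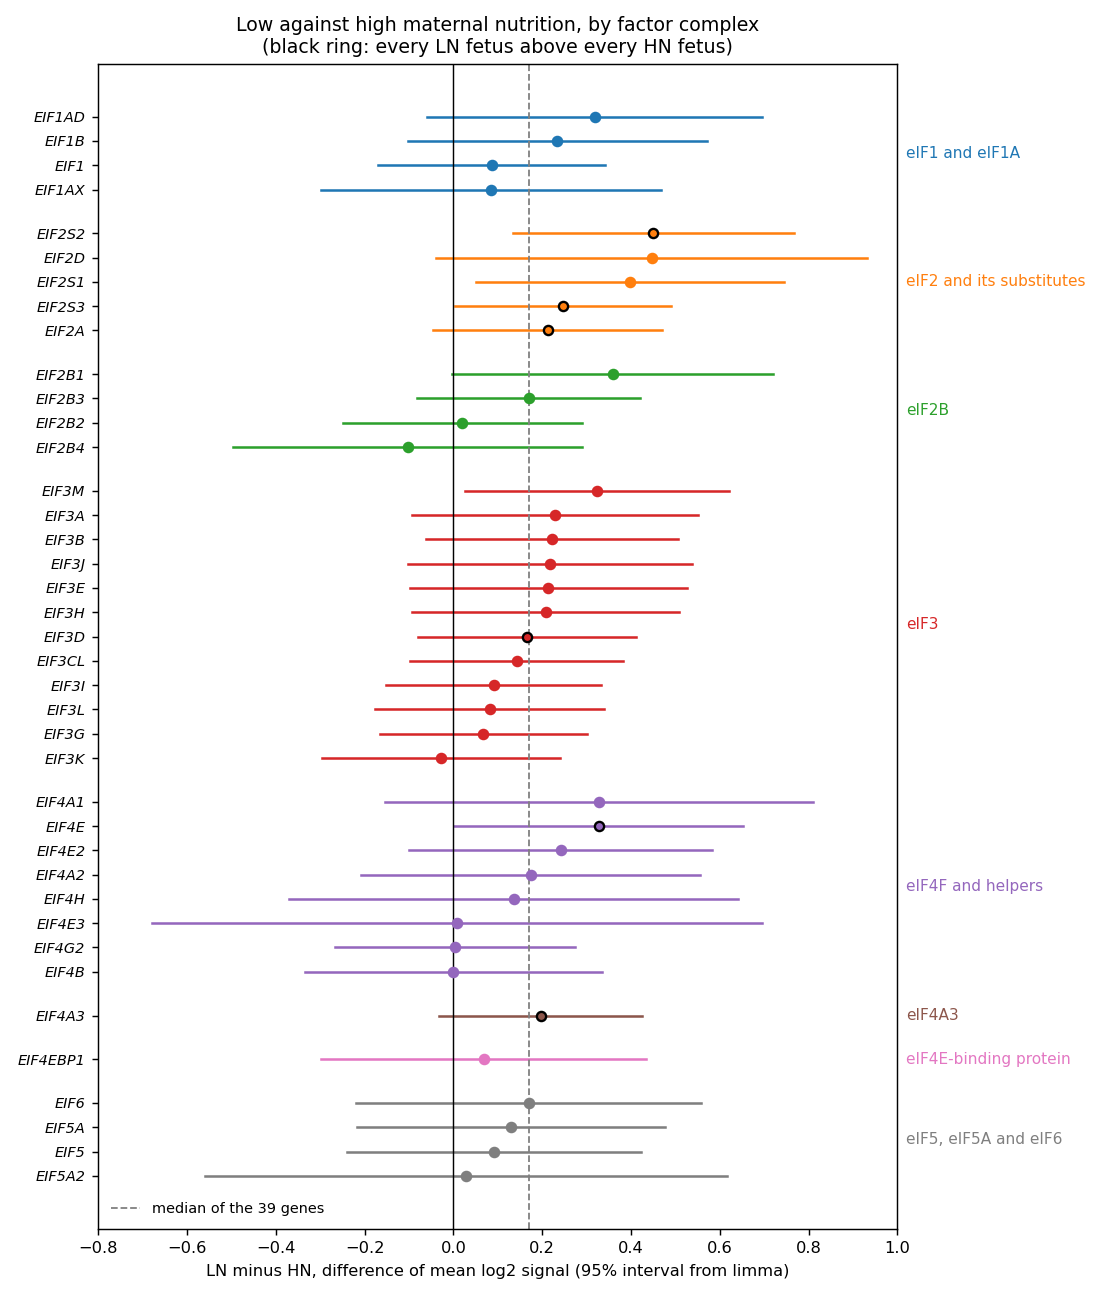
Difference of mean log2 signal between LN and HN (x axis) for the 39 detected initiation factor genes (y axis), grouped and coloured by complex, with the 95% interval from limma as a line and a black ring where the groups do not overlap. All points but those of EIF2B4 and EIF3K lie at or to the right of 0, and 34 of 39 intervals hold 0.

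The factor eIF2 is the GTP-binding complex that carries the initiator tRNA. EIF2S1, EIF2S2 and EIF2S3, which encode its alpha, beta and gamma subunits, were each higher in LN, with limma p-values of at most 0.05 before adjustment. With array position as a block EIF2S1 and EIF2S2 kept such a p, and EIF2S3 did not. Signals of EIF2S2 (NM_001015621) were 13.21 in L5, 12.99 in L6, 12.99 in L8 and 12.98 in L9, against 12.75 in L1, 12.68 in L2, 12.68 in L3 and 12.27 in L10. The groups did not overlap, L5 stood above the other LN fetuses and L10 below the other HN fetuses. The LN mean was 13.05 ± 0.11 and the HN mean 12.59 ± 0.22 (SD, with 4 fetuses a group here and throughout), and the difference was 0.45 (standard error 0.14, unadjusted limma p = 0.0107, limma adjusted p = 0.760, exact permutation p = 0.0286). Without L10 it was 0.34, and EIF2S2 was the only member whose unadjusted p stayed at or below 0.05 in all 18 alternatives of processing and of left-out fetuses. Its other probe differed by 0.47, and there the groups overlapped, with L6 below L2.

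EIF2S1 (NM_175813) encodes the subunit that stress kinases phosphorylate. Its log2 signals were 10.49 in L5, 9.94 in L6, 10.30 in L8 and 10.12 in L9 in the LN group and 10.05 in L1, 9.83 in L2, 9.72 in L3 and 9.66 in L10 in the HN group. L6 alone lay within the HN range, below L1, and L5 was again the highest. The difference of EIF2S1 was 0.40 (standard error 0.15, unadjusted limma p = 0.0294, limma adjusted p = 0.769, exact permutation p = 0.0571), and 0.51 with its other probe. For EIF2S3 (NM_001046117), the GTP-binding subunit, the signals were 12.10 in L5, 12.02 in L6, 11.83 in L8 and 12.001 in L9 for LN, and 11.75 in L1, 11.80 in L2, 11.69 in L3 and 11.71 in L10 for HN. The ranges met closely without overlap, at L8 and L2. This gave a difference of 0.25 (standard error 0.11, unadjusted limma p = 0.0477, limma adjusted p = 0.785, exact permutation p = 0.0286).

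EIF2A and EIF2D encode single-chain proteins that can bring tRNA to the ribosome without eIF2, and both were higher in LN. EIF2A (NM_001102283) was at 10.08 in L5, 9.84 in L6, 9.91 in L8 and 9.79 in L9, and at 9.71 in L1, 9.70 in L2, 9.78 in L3 and 9.57 in L10. The lowest LN fetus, L9, and the highest HN fetus, L3, were nearly level, though the groups did not overlap. EIF2A differed by 0.21 (standard error 0.11, unadjusted limma p = 0.0945, limma adjusted p = 0.793, exact permutation p = 0.0286). Its other probe differed by 0.20, and there the groups overlapped, with L6 below L3. EIF2D (NM_001035104) was at 9.86 in L5, 10.12 in L6, 10.06 in L8 and 10.22 in L9, against 9.65 in L1, 9.07 in L2, 10.14 in L3 and 9.63 in L10. L3 lay among the LN fetuses and L2 far below all others. The difference of EIF2D was 0.45 with an interval of -0.04 to 0.93 (standard error 0.21, unadjusted limma p = 0.0668, limma adjusted p = 0.787, exact permutation p = 0.114), and without L2 it was 0.26. Its other probe, dimmer, differed by 0.35, and there every LN fetus lay above every HN fetus. Over the 5 genes of this class, all were higher in LN and the median difference was 0.40, between 0.27 without L2 and 0.46 without L1. L5 had the highest signal of the 8 fetuses for 4 of the 5, and L10 the lowest for 3.

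**Figure D2:**
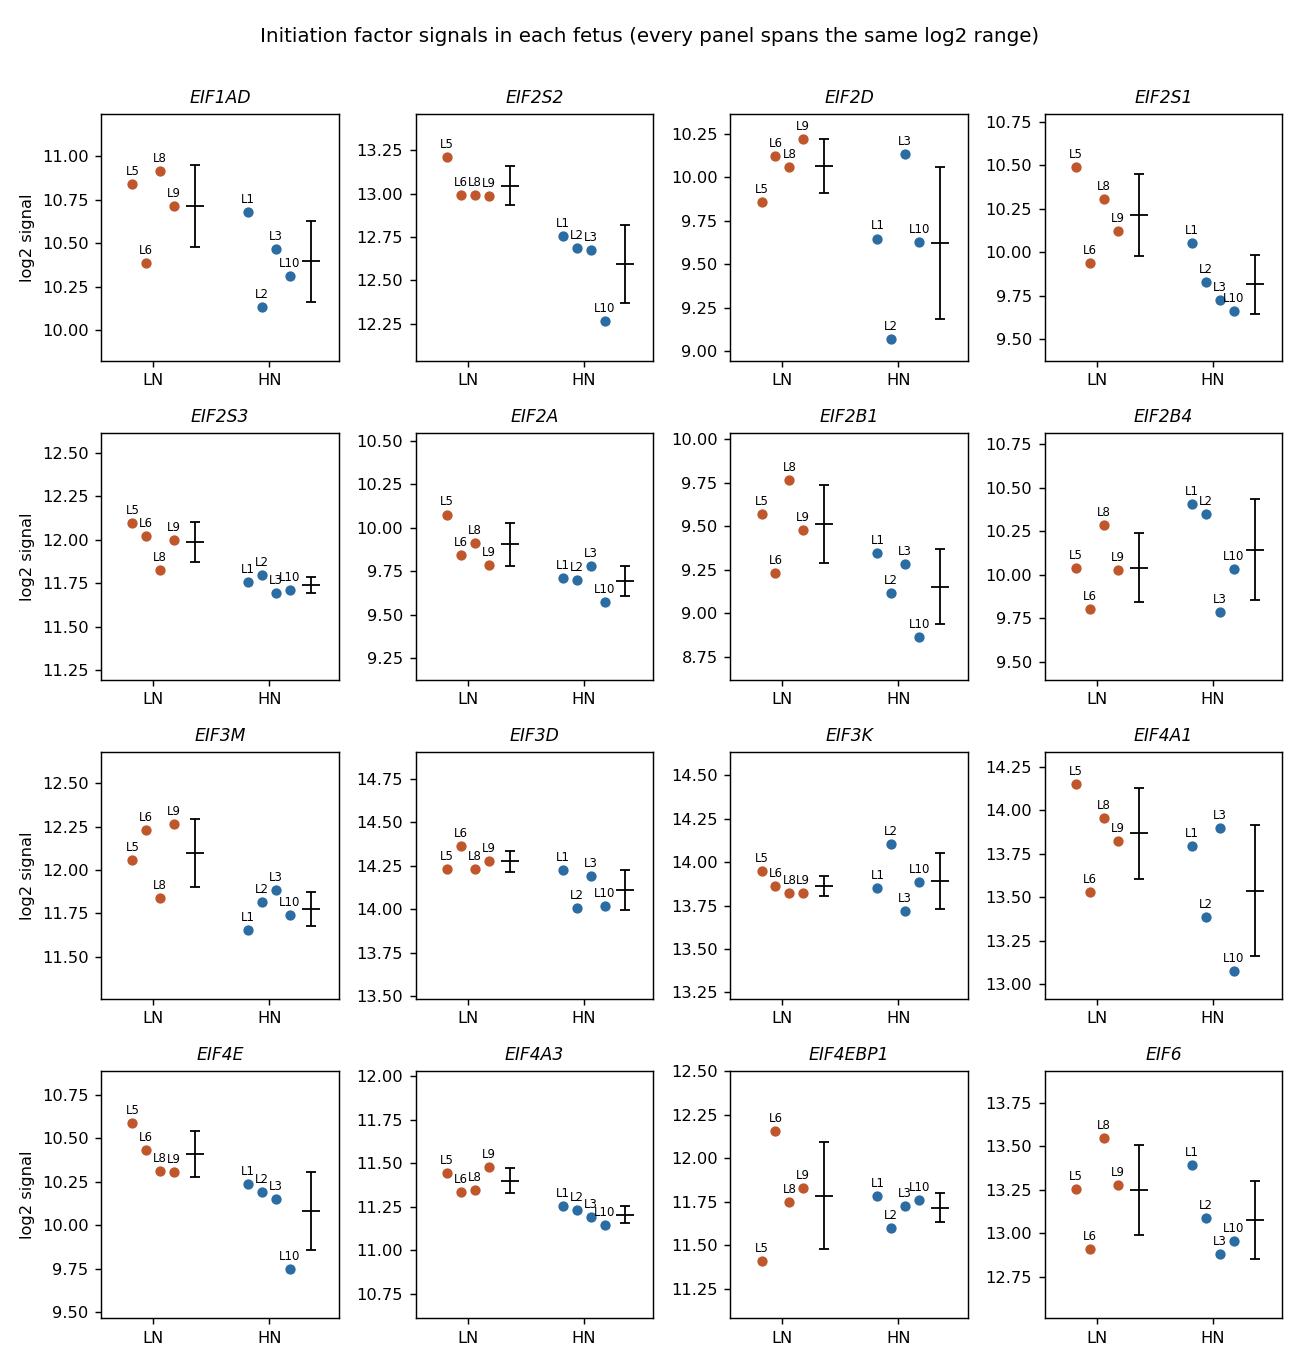
Quantile-normalized log2 signal (y axis, the same span in every panel) of 16 initiation factor genes in each LN and HN fetus, with the group mean and SD (n = 4) as a black bar beside the points. The groups are apart for EIF2S2, EIF2S3, EIF2A, EIF3D, EIF4E and EIF4A3, and L10 is the lowest fetus for EIF2S2, EIF2S1, EIF2A, EIF2B1, EIF4A1, EIF4E and EIF4A3.

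The transcripts of eIF2B, the exchange factor that reloads eIF2 with GTP, did not share 1 direction. EIF2B1, the alpha subunit, had signals of 9.57 in L5, 9.23 in L6, 9.77 in L8 and 9.48 in L9 in LN and 9.35 in L1, 9.12 in L2, 9.28 in L3 and 8.87 in L10 in HN. L6 lay between L2 and L3, and L10 was the lowest. Its difference was 0.36 (standard error 0.16, unadjusted limma p = 0.0511, limma adjusted p = 0.785, exact permutation p = 0.0857). EIF2B4, the delta subunit, was at 10.04 in L5, 9.80 in L6, 10.29 in L8 and 10.03 in L9, against 10.41 in L1, 10.35 in L2, 9.78 in L3 and 10.03 in L10. The HN range, from L3 to L1, covered that of LN. The mean of EIF2B4 was lower in LN, with a difference of -0.10 (standard error 0.17, unadjusted limma p = 0.568, limma adjusted p = 0.938, exact permutation p = 0.543), and all 3 of its probes were lower. With a fetus left out it ran from -0.22 without L3 to -0.015 without L1. EIF2B3 and EIF2B2, the gamma and beta subunits, differed by 0.17 and 0.02. Their intervals, -0.08 to 0.42 and -0.25 to 0.29, hold 0. The median of the 4 was 0.09, and 0.05 without L8.

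In eIF3, the largest factor, which covers the small subunit and recruits mRNA, 11 of 12 detected subunit genes were higher in LN, with a median difference of 0.19. EIF3M (NM_001035312), a subunit of the octamer that forms its core, was at 12.06 in L5, 12.23 in L6, 11.84 in L8 and 12.26 in L9 in LN and at 11.65 in L1, 11.82 in L2, 11.88 in L3 and 11.74 in L10 in HN. L8 lay below L3, and the other LN fetuses lay above all HN fetuses. It differed by 0.32 (standard error 0.13, unadjusted limma p = 0.0360, limma adjusted p = 0.785, exact permutation p = 0.0571). The other probe of EIF3M differed by 0.35, and there every LN fetus was above every HN fetus. With array position as a block the unadjusted limma p of EIF3M was 0.0812. EIF3D (NM_001034484), which can bind the cap itself, was at 14.23 in L5, 14.36 in L6, 14.23 in L8 and 14.28 in L9, and at 14.22 in L1, 14.01 in L2, 14.19 in L3 and 14.02 in L10. L5 and L1 stood side by side at the border of the groups. EIF3D differed by 0.17 (standard error 0.11, unadjusted limma p = 0.161, limma adjusted p = 0.826, exact permutation p = 0.0286). Its other 2 probes differed by 0.08 and 0.02 and overlapped between the groups, and with the mean over its probes EIF3D differed by 0.09, with overlap.

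The scaffold subunits EIF3A and EIF3B and the subunits EIF3E, EIF3H and EIF3J formed a band of near-equal differences: EIF3A (0.23), EIF3B (0.22), EIF3J (0.22), EIF3E (0.21) and EIF3H (0.21). In all 5 of them fetus L3 was the highest of the HN group and above at least 1 LN fetus. EIF3CL (0.14) was the only symbol for the c subunit in the reference table, which lists no separate EIF3C. EIF3I (0.09), EIF3L (0.08) and EIF3G (0.07) differed less. EIF3K was at 13.95 in L5, 13.86 in L6, 13.82 in L8 and 13.82 in L9, against 13.85 in L1, 14.11 in L2, 13.72 in L3 and 13.88 in L10. The LN fetuses sat within the wider HN range, which L2 and L3 bounded. The mean of EIF3K was lower in LN, with a difference of -0.03 (standard error 0.12, unadjusted limma p = 0.824, limma adjusted p = 0.979, exact permutation p = 0.771), and the sign turned (0.05) without L2. With the mean over all probes of a gene in place of the brightest, the median of the complex was 0.12.

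In the cap-binding group, EIF4E (NM_174310) encodes the cap-binding protein itself. Its signals were 10.59 in L5, 10.44 in L6, 10.31 in L8 and 10.31 in L9 in LN and 10.24 in L1, 10.19 in L2, 10.15 in L3 and 9.75 in L10 in HN. Groups did not overlap, and L10 lay well below the other HN fetuses. EIF4E differed by 0.33 (standard error 0.14, unadjusted limma p = 0.0494, limma adjusted p = 0.785, exact permutation p = 0.0286), and by 0.22 without L10. Its other probes differed by 0.22, where the groups overlapped, and by 0.26, where they did not. With array position as a block the unadjusted limma p of EIF4E was 0.0575. EIF4A1, the main RNA helicase of the complex, was at 14.15 in L5, 13.53 in L6, 13.96 in L8 and 13.83 in L9, against 13.80 in L1, 13.38 in L2, 13.90 in L3 and 13.08 in L10. L6 was low among the LN fetuses and L3 high among the HN fetuses, and L10 was the lowest of all. The difference of EIF4A1 was 0.33 with an interval of -0.15 to 0.81 (standard error 0.21, unadjusted limma p = 0.158, limma adjusted p = 0.825, exact permutation p = 0.200), and 0.17 without L10. The other probe of EIF4A1 differed by 0.08, and the mean over both probes by 0.20. Members of this group with smaller or no differences were EIF4E2 (0.24), a cap-binding relative of eIF4E, EIF4A2 (0.17), the second helicase, and EIF4H (0.14), a helicase cofactor. The other probes of EIF4A2 differed by 0.24, 0.26, 0.28 and 0.01. Every LN fetus lay above every HN fetus for those at 0.26 and 0.28, and the groups overlapped for the rest. EIF4E3 (0.01), EIF4G2 (0.00), a scaffold relative that lacks the eIF4E site, and EIF4B (0.00), another helicase cofactor, had group means within 0.01 of each other. The median over the 8 genes was 0.15, and 0.09 without L10.

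EIF4A3 (NM_001046188), a helicase of the same family that marks exon junctions on spliced mRNA, was at 11.44 in L5, 11.33 in L6, 11.35 in L8 and 11.48 in L9 in LN and at 11.25 in L1, 11.23 in L2, 11.19 in L3 and 11.14 in L10 in HN. All LN fetuses were above all HN fetuses, and this order also held with 75th percentile scaling, with normexp background correction and in the authors' log2 table. The difference was 0.20 (standard error 0.10, unadjusted limma p = 0.0842, limma adjusted p = 0.788, exact permutation p = 0.0286). EIF4EBP1 encodes the repressor that binds eIF4E when mTORC1 is inactive and keeps eIF4G from joining it. The signals of EIF4EBP1 were 11.41 in L5, 12.15 in L6, 11.75 in L8 and 11.83 in L9, against 11.78 in L1, 11.60 in L2, 11.73 in L3 and 11.76 in L10. The HN fetuses were close together, and L5 and L6 lay at opposite ends of the LN group. Its difference of 0.07 (standard error 0.16, unadjusted limma p = 0.681, limma adjusted p = 0.955, exact permutation p = 0.657) became -0.05 without L6.

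Among the late factors, EIF6, which keeps free large subunits from joining small ones, was at 13.25 in L5, 12.91 in L6, 13.54 in L8 and 13.28 in L9, against 13.39 in L1, 13.09 in L2, 12.88 in L3 and 12.95 in L10. L6 and L3 were the lowest of their groups, and the ranges largely overlapped. EIF6 differed by 0.17 (standard error 0.17, unadjusted limma p = 0.348, limma adjusted p = 0.887, exact permutation p = 0.371), and 1 of its 3 probes was lower in LN, with a difference of -0.07. The difference of EIF6 was 0.07 without L8, 0.28 without L6 and 0.05 with the mean over its probes. EIF5A, which helps ribosomes through difficult peptide bonds, differed by 0.13. EIF5, the GTPase activator of eIF2, differed by 0.09. EIF5A2, a relative of EIF5A, differed by 0.03 with an interval of -0.56 to 0.62. The median over these 4 genes was 0.11, and 0.02 without L10.

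EIF1AD encodes a nuclear protein with an eIF1A-like domain, which the symbol rule takes with eIF1 and eIF1A though it is not an established scanning factor. It was at 10.84 in L5, 10.39 in L6, 10.92 in L8 and 10.71 in L9 in LN and at 10.68 in L1, 10.13 in L2, 10.46 in L3 and 10.31 in L10 in HN. L6 was low and L1 high, so that the groups overlapped. The difference of EIF1AD was 0.32 (standard error 0.17, unadjusted limma p = 0.0885, limma adjusted p = 0.790, exact permutation p = 0.114). EIF1B, EIF1 and EIF1AX, whose products guard start codon choice and scanning, differed by 0.23, 0.09 and 0.09. L5 had the highest signal for these 3 genes, and the median over the 4 genes was 0.16, or 0.10 without L5.

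Single fetuses weighed on these values. HN fetus L10 was the lowest of the 8 for 15 of 39 initiation factor genes (38.5%), against 17.5% of all genes, and its signal was below the gene mean for 35 of them. LN fetus L5 was the highest for 11 (28.2%), against 16.3% of all genes. The median deviation from the gene mean over the 39 genes was 0.11 in L5, 0.05 in L6, 0.11 in L8 and 0.11 in L9. In HN it was -0.04 in L1, -0.10 in L2, -0.03 in L3 and -0.20 in L10. All LN fetuses were above 0 and all HN fetuses below it, and L10 was the farthest from it. Over all genes the same medians lay between -0.02 and 0.02. When fetuses were left out 1 at a time, the median difference of the 39 genes stayed between 0.13, without L10, and 0.20, without L1.

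**Figure D3:**
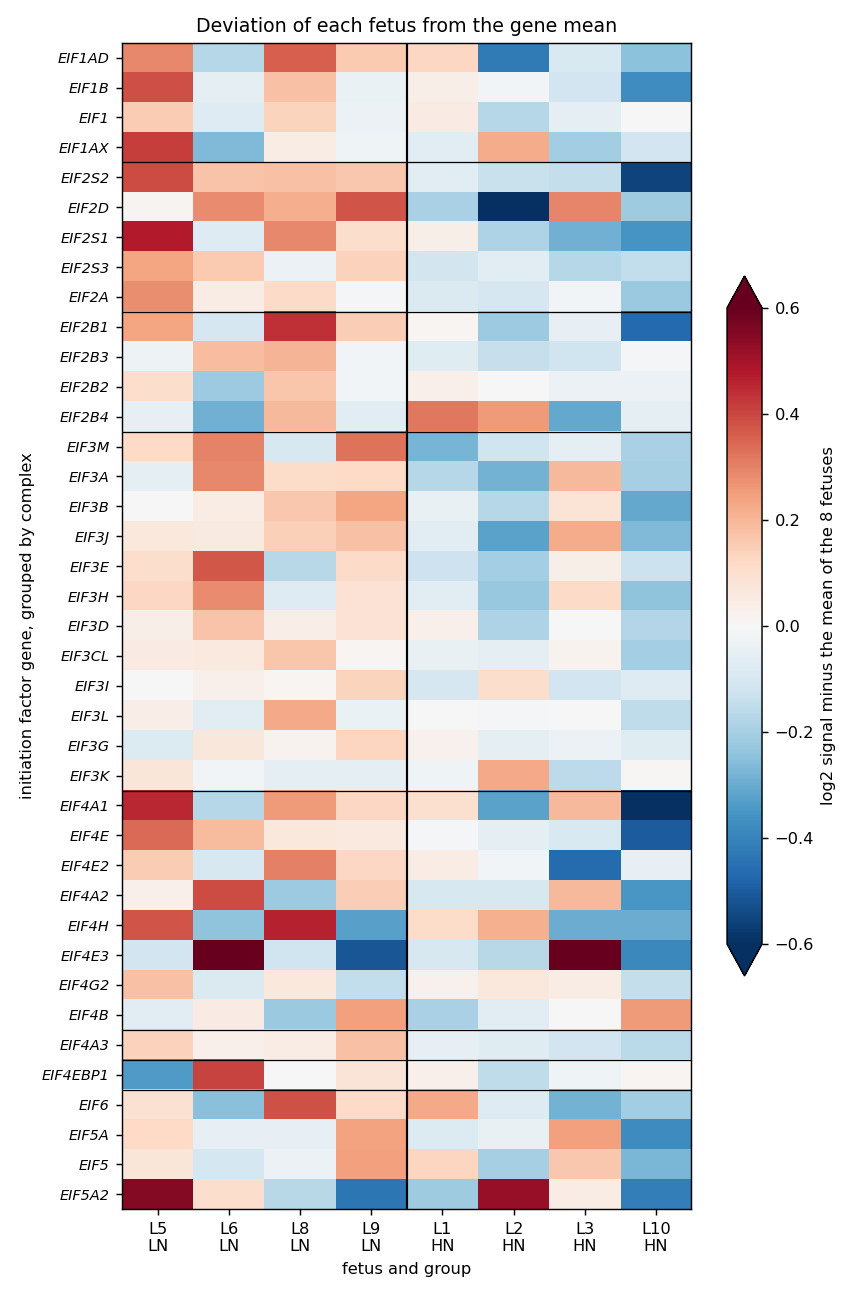
Deviation of each fetus (columns, LN left and HN right of the line) from the mean log2 signal over the 8 fetuses for the 39 detected initiation factor genes (one gene a line, complexes separated by lines), red above and blue below the mean. L10 is below the mean for 35 genes, and L5 is above it for all 5 genes of eIF2 and its substitutes.

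Markers of other liver cells differed between the same fetuses. Of the 10 erythroid marker genes, 7 were detected, and all 7 were higher in LN and highest in L5. Among all genes 51.6% were higher in LN and 16.3% were highest in L5. Of the 7 erythroid genes, 0 had an unadjusted limma p of 0.05 or less. Their summed signal on the linear scale ran from 30019 to 301431 in LN and from 11344 to 76086 in HN. L5 held the highest sum, and the sums of L6, L8 and L9 lay within the HN range. L10, at 44009, was within the range of the other fetuses. Of 7 detected neutrophil markers, 6 were higher in LN, and their sum ran from 6677 to 20691 in LN and from 2954 in L10 to 7018 in HN. MPO (1.32), CATHL4 (1.78) and ELANE (0.91), which encode granule proteins, had unadjusted limma p-values of 0.00304, 0.00936 and 0.0104, with every LN fetus above every HN fetus. Each had a limma adjusted p of 0.760 and an exact permutation p of 0.0286. LTF was the neutrophil marker lower in LN (-0.22). Among all genes 3.30% were higher at an unadjusted limma p of 0.05, and 2.59% had LN above HN without overlap. The sum of 7 detected hepatocyte markers ran from 1681840 to 1783380 in LN and from 1600540 to 1747550 in HN. Several of these are among the brightest probes, whose values quantile normalization holds nearly equal between arrays. TF and TTR took repeated values between 18.32 and 18.47 across the fetuses. The sum therefore cannot show whether hepatocyte content differed. SLC4A1, EPB42 and KLF1 among the erythroid, AZU1 among the neutrophil and APOB among the hepatocyte markers had no detected probe. The part of these cells in the initiation factor differences was not tested. Without L5 the median difference of the 39 genes was 0.18, with 33 higher and 6 lower.

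Probes of 1 gene mostly gave the same direction. The 39 genes had 101 detected probes, of which 87 were higher in LN and 14 lower. Of 34 genes with more than 1 detected probe, 27 had all of them higher, EIF2B4 and EIF3K had all of them lower, and 5 (EIF3CL, EIF3G, EIF4B, EIF4G2 and EIF6) had both directions. A second probe of EIF4E3 was well above background on 0 of 8 arrays. The following probe values were chosen for description after they were seen. The brightest probe of EIF4H was at 8.16 in L5, 7.54 in L6, 8.24 in L8, 7.46 in L9, 7.89 in L1, 8.00 in L2, 7.48 in L3 and 7.49 in L10. Its other probe was at 6.17 in L5, 7.15 in L6, 6.51 in L8, 7.10 in L9, 6.40 in L1, 6.31 in L2, 6.99 in L3 and 6.47 in L10. The first probe was low in L6, L9, L3 and L10, and the other was high in L6, L9 and L3. Of the 7 probes of EIF4G2, 3 were higher in LN, with differences up to 0.06, and 4 lower, with differences down to -0.22. What the probes of a gene have in common or not was not tested.

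**Figure D4:**
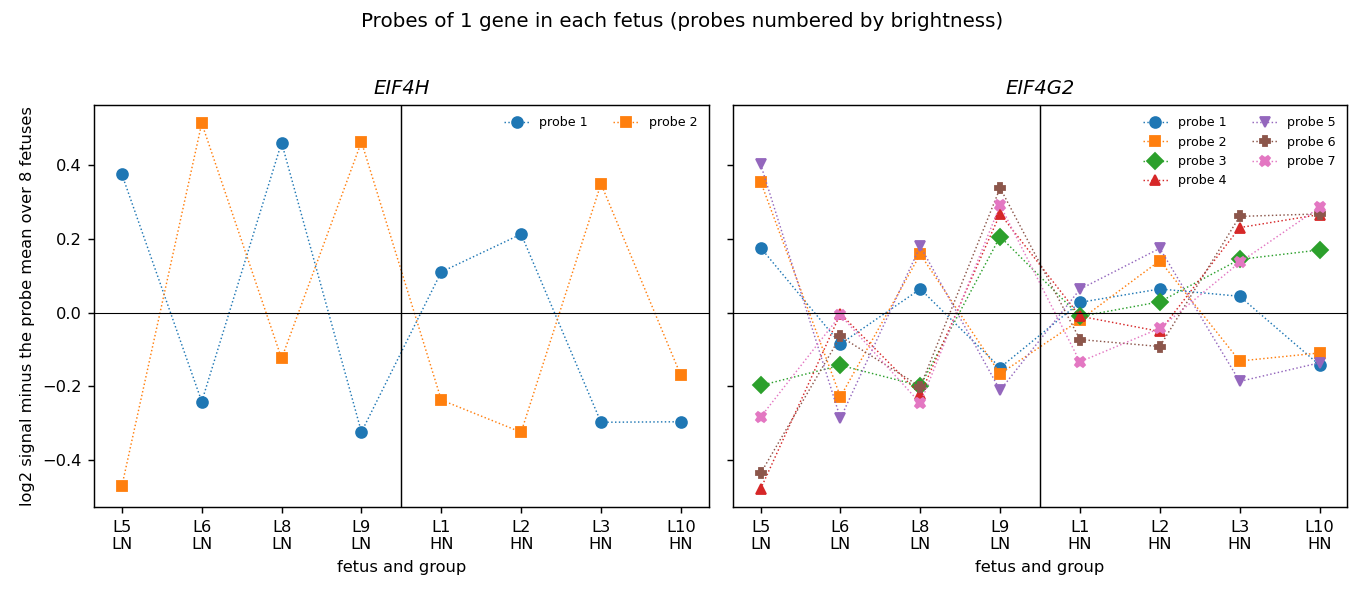
Log2 signal of each detected probe of EIF4H and EIF4G2 minus that probe's mean over the 8 fetuses (y axis) by fetus (x axis), probes numbered from the brightest. For EIF4H the 2 probes lie on opposite sides of 0 in every fetus but L10, and for EIF4G2 probes 3, 4, 6 and 7 lie below 0 in L5, where probes 1, 2 and 5 lie above it.

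Genes that control or assist initiation were examined as lists. In a list of eIF2alpha kinases, phosphatase genes and IMPACT, 8 genes were detected. Of these, 4 were higher and 4 lower in LN, with a median of 0.00. An unadjusted limma p of 0.05 or less was reached by 0 of the 8. Kinases and phosphatase act in opposite ways, so this median is no measure of eIF2alpha control. EIF2AK3, the kinase PERK of the endoplasmic reticulum, differed by -0.12, EIF2AK2 by -0.05 and EIF2AK1, the haem-regulated kinase, by -0.0017. Of the phosphatase genes, PPP1R15A, PPP1CB and PPP1CC were higher in LN and PPP1CA was lower. All 7 integrated stress response targets were higher in LN, against 51.6% of all genes, with a median of 0.48, and 3 had an unadjusted limma p of 0.05 or less, against 3.30% of all genes higher. ATF4, the transcription factor whose translation rises when eIF2 is phosphorylated, was at 15.91 in L5, 15.93 in L6, 16.06 in L8 and 15.62 in L9 in LN, and at 15.52 in L1, 15.28 in L2, 15.69 in L3 and 15.09 in L10 in HN. L9 lay below L3, and L10 was the lowest. ATF4 differed by 0.48 (standard error 0.16, unadjusted limma p = 0.0162, limma adjusted p = 0.760, exact permutation p = 0.0571). ASNS, asparagine synthetase, differed by 0.85 with no overlap (standard error 0.27, unadjusted limma p = 0.0127, limma adjusted p = 0.760, exact permutation p = 0.0286), and TRIB3, a pseudokinase induced by ATF4, by 0.73 (standard error 0.26, unadjusted limma p = 0.0206, limma adjusted p = 0.760, exact permutation p = 0.0857). By limma, 0 of the 7 passed an adjusted p of 0.05.

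Of 12 detected genes of the mTORC1 and MNK inputs, 5 were higher and 7 lower, with a median of -0.04 and 0 at an unadjusted limma p of 0.05. The median of 11 poly(A)-binding and initiation helper genes was 0.16, with 8 higher and 3 lower. In that list PABPC4, a poly(A)-binding protein, was at 12.21 in L5, 12.06 in L6, 12.12 in L8 and 12.28 in L9 in LN and at 11.89 in L1, 11.86 in L2, 11.92 in L3 and 11.70 in L10 in HN, with no overlap. It differed by 0.33 (standard error 0.11, unadjusted limma p = 0.0161, limma adjusted p = 0.760, exact permutation p = 0.0286). PAIP1, its partner at the cap complex, differed by 0.21, also with no overlap (standard error 0.11, unadjusted limma p = 0.0833, limma adjusted p = 0.788, exact permutation p = 0.0286). Of 8 elongation factor genes, 4 were higher and 4 lower, and EEF1E1, a scaffold protein of the tRNA synthetase complex, alone had no overlap (0.33, standard error 0.13, unadjusted limma p = 0.0360, limma adjusted p = 0.785, exact permutation p = 0.0286). All 3 termination factor genes were higher, and GSPT1, the release factor GTPase eRF3a, differed by 0.35 with no overlap (standard error 0.11, unadjusted limma p = 0.0122, limma adjusted p = 0.760, exact permutation p = 0.0286). At an unadjusted limma p of 0.05 or less there was 1 gene in each of these last 3 lists, higher in LN, and 0 passed an adjusted p of 0.05. Among all genes 3.30% were higher and 2.75% lower at that unadjusted p, 51.6% were higher at any size and 2.59% had LN above HN without overlap.

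The other parts of the translation machinery are given for comparison. Of 81 cytosolic ribosomal protein genes, 64 (79.0%) were higher in LN, with a median of 0.04, 0 at an unadjusted limma p of 0.05 and 2 with no overlap. Of 30 aminoacyl-tRNA synthetase genes, 22 (73.3%) were higher, with a median of 0.14, 10 at an unadjusted limma p of 0.05 and 7 with no overlap. Over all genes, 51.6% were higher, 3.30% were higher at that p and 2.59% were higher with no overlap. The synthetases ran from -0.31 to 0.67 and the ribosomal proteins from -0.09 to 0.23, against -0.10 to 0.45 for the initiation factors. The differences between these lists were not tested.

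**Figure D5:**
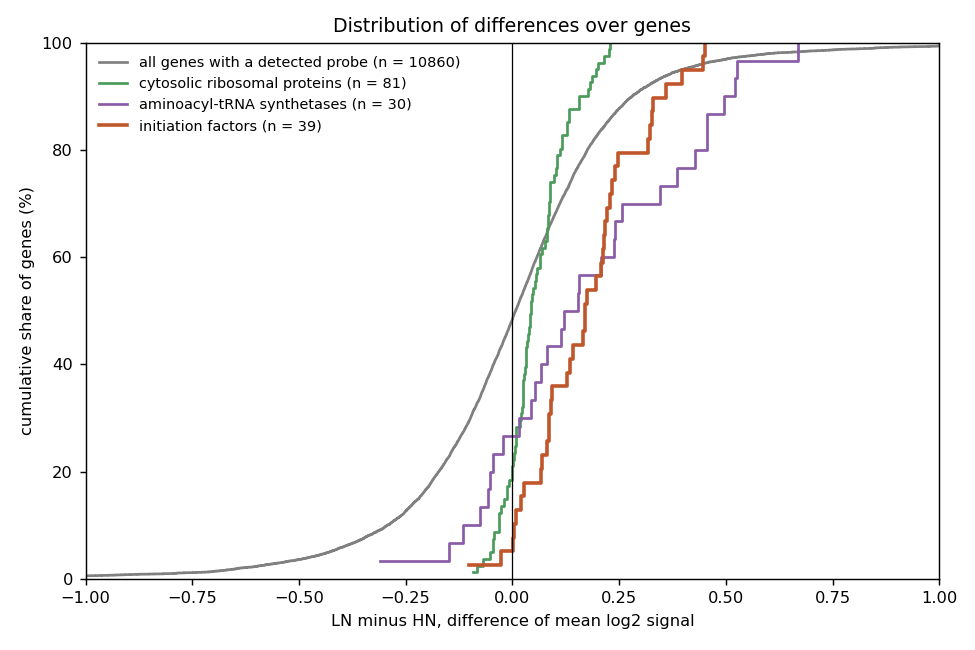
Cumulative share of genes (y axis, percent) by difference of mean log2 signal, LN minus HN (x axis, shown from -1 to 1), for 39 initiation factors, 81 cytosolic ribosomal proteins, 30 aminoacyl-tRNA synthetases and all 10860 genes with a detected probe. The initiation factor curve crosses the median at 0.17 and that of all genes at 0.01.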

How the data were processed

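Liver RNA of 8 fetuses was measured on Agilent bovine arrays. The authors deposited scanner output in which the intensity of a spot is background-subtracted by Feature Extraction 11.0.1.1 (submitters' processing notes), and a table of log2 values for 31068 probes, which the methods state was quantile normalized in GeneSpring GX. Here 1417 control spots and 16 probes with an outlier mark were removed, log2 intensities were averaged per probe, and the 43637 remaining probes were quantile normalized. Detection meant a signal well above background in at least 4 of 8 arrays and held for 33439 probes. RefSeq accessions matched 26740 probes to 12603 genes (ARS-UCD2.0 reference table), and the brightest detected probe stood for a gene. The array was designed on another build, so no coordinates are given, and no sequences or promoter motifs were analysed here.

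The groups were compared by limma 3.58.1 (R 4.3.3), fitted with lmFit and moderated with eBayes, and 2-sided p-values were adjusted by Benjamini-Hochberg over the detected probes. The exact permutation test of a gene ran through all 70 divisions of the fetuses, 2-sided, with a smallest p of 0.0286. Precision is limited by the number of arrays. Functions were tested on simulated data. The members and lists were chosen with earlier results of these data known. Values of every fetus are given for members with an unadjusted p of at most 0.05 or no overlap, the 2 largest differences in each direction and the largest of each complex (16 genes). Genes of the other lists are named by the same p or overlap, at most 4 per list. The genes of the eIF2alpha kinase and phosphatase list, LTF, TF and TTR were added after their values were seen. Marker lists covered hepatocytes, erythroid cells, neutrophils, macrophages, lymphocytes, endothelium, stellate cells and matrix, bile duct and proliferation. Alternatives were scaling to the 75th percentile, normexp with an offset of 50, the authors' log2 table, no filter or detection on all 8 arrays, the mean over probes, trended and robust eBayes, a block for array position, the methods' t-test and each fetus left out. Leaving out L6, L9 and L3 together was added after seeing the data.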

Additional observations from a re-analysis of the deposited data

Results flagged for a closer look

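In 78 pairs of a gene and a group, 5 had 1 fetus far from the other 3, judged by its gap to the nearest of them as a share of the range of the group. Chance alone marks about 5 in 100 such groups. L10 stood below the other HN fetuses for EIF2S2, at 12.27 against 12.68 for the nearest (share 0.841), for EIF3L, at 12.39 against 12.54 (share 0.930), and for EIF4E, at 9.75 against 10.15 (share 0.831). L5 stood above the other LN fetuses for EIF2S2, at 13.21 against 12.99 (share 0.955). L2 stood above the other HN fetuses for EIF3I, at 13.40 against 13.21 (share 0.841).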

How the results depend on the processing

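Over the 18 alternatives the median difference of the initiation factor genes stayed between 0.13 and 0.21, 0 genes passed an adjusted p of 0.05, and the lowest adjusted p of a member lay between 0.400 and 1.00. The number higher in LN was between 33 and 37 with a fetus left out in turn, and the number lower between 2 and 6. The number lower was 4 with scaling to the 75th percentile, 4 with the mean over a gene's probes and 4 without L6, L9 and L3 together. The number higher at an unadjusted limma p of 0.05 was 9 with normexp (4.73% of all genes), 8 without a filter on dim probes (4.27%), 2 with array position as a block (2.43%; EIF2S1 and EIF2S2, while EIF2S3, EIF3M and EIF4E no longer passed) and between 1 and 5 with a fetus left out (1.89% to 4.15%). By the methods' t-test it was 10 (4.37%). Without overlap, between 6 and 12 genes were higher with a fetus left out (3.23% to 5.76% of all genes), and 22 without L6, L9 and L3 (17.2%). The causes were not tested, though fewer fetuses overlap less by construction. Of 288 values of the 16 named genes under alternatives, 285 kept their direction. Alternatives that changed only the test, the block or the filter left each of these differences as it was. They could not turn a direction, so this count overstates stability. The difference of EIF4EBP1 became -0.055 without L6 and -0.13 without L6, L9 and L3, and that of EIF3K became 0.045 without L2. With a fetus left out these differences ran from -0.055 to 0.19 for EIF4EBP1 and from -0.084 to 0.045 for EIF3K. The fetus numbers in the labels are not shared between the groups, so no pairing of fetuses follows from them. Array position, held by 1 fetus of each group, was the block fitted above. With 4 fetuses a group, the 95% intervals of 34 of 39 genes held 0, so the differences of these 34 could not be told from 0 gene by gene. The intervals of the other 5 lay above 0. They are not adjusted for the number of genes, and 0 genes passed an adjusted p of 0.05.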

Other observations

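The remaining marker lists gave these values, as summed linear signals of their detected genes. Macrophage markers summed to between 152672 and 246608 in LN and between 164356 and 267584 in HN, with 5 of 6 genes lower in LN. Lymphocyte markers summed to between 5255 and 7165 in LN and between 5973 and 8023 in HN, with 4 of 4 lower. Endothelial markers lay between 10180 and 14490 in LN and between 8780 and 11424 in HN, and markers of stellate cells and matrix between 77970 and 94563 in LN and between 71674 and 154421 in HN. For bile duct markers the sums were between 7479 and 10115 in LN and between 7805 and 9031 in HN. Proliferation markers summed to between 15429 and 21929 in LN and between 16412 and 18150 in HN, with 6 of 11 genes higher in LN. The ranges of LN and HN overlapped for each of these 6 lists.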
